A study of Mus musculus with 4 samples.

Results

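The 7 genes Hmgcs1, Sqle, Insig1, Fdft1, Idi1, Lss and Dhcr7 act in cholesterol synthesis or in its control, and they were taken by symbol from a table of 12515 transcript rows that stand for 10213 gene symbols. All 7 symbols were present with 1 row each, so that the row and the sum over a symbol were the same value. The table holds RNA abundance in multicilia purified from mouse ependymal cells in culture (mEPCs), in 4 libraries. The Fmr-i1 group (n = 2) was transfected with an siRNA against Fmr1, the gene of the RNA-binding protein Fmrp, and the Ctrl-i group (n = 2) with a control siRNA. Each group has 1 library in Exp.1 and 1 in Exp.2, and the question was which ciliary mRNAs depend on Fmrp. In both groups the cells came from the telencephalon of C57BL/6 pups of either sex at postnatal day 0 to 1, received 40 pmol of siRNA every 3 days from the day before serum was withdrawn, and were harvested after 10 days of serum starvation.

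The knockdown was made in a mixed culture and not in a clone, and by the study's methods the purified material was apical cell cortex with the multicilia still attached. A value is therefore an abundance in this fraction and not in whole cells, and fewer cells of a type cannot be told apart from less RNA per cell. Values are FPKM, by definition fragments scaled to the length of a transcript and to the mapped fragments of its library, on a linear scale. Which length was used for these values is not settled. Because the read depth of the libraries is unknown, counting error could not be attached to any value.

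Cholesterol is built from acetyl-CoA. Enzymes of the mevalonate pathway, among them the synthase Hmgcs1 and the isomerase Idi1, first make isoprenoid units. Fdft1 joins these into squalene, Sqle oxidises squalene, Lss closes the ring to lanosterol, and a chain of sterol enzymes that includes Dhcr7 converts lanosterol to cholesterol. Most of these steps take place on the endoplasmic reticulum. When sterols are scarce, the protein Scap escorts the SREBP transcription factors to the Golgi for cleavage, and the freed factors bind sterol regulatory elements, often beside a box bound by NF-Y. Insig1 holds Scap in the endoplasmic reticulum when sterols are plentiful and is itself an SREBP target.

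The target itself, Fmr1, stood at 0 FPKM in Fmr-i1 Exp.1 and Exp.2, against 0.42 FPKM in Ctrl-i Exp.1 and 8.13 FPKM in Ctrl-i Exp.2. A value of 0 in a table of FPKM can be a failed estimate, and the same 0 was given to 162 rows in each Fmr-i1 library and to none in Ctrl-i. Over the rows above 0 in all 4 libraries, median FPKM was 8.99 and 9.39 in Fmr-i1 and 8.32 and 7.73 in Ctrl-i. Mitochondrially encoded RNAs took 28.8% and 23.5% of summed FPKM in Fmr-i1, against 28.1% and 38.4% in Ctrl-i. All 12 multiciliated cell markers and all 8 astrocyte markers had rows. No row was found for 5 of 8 neuron markers (Snap25, Syt1, Rbfox3, Nefl and Nefm), for 9 of 10 microglia markers, for 6 of 11 oligodendrocyte markers, for 4 of 7 mesenchymal markers or for 5 of 6 endothelial markers.

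Promoter windows, which run 250 bases before to 50 bases after the start of a gene, were found for 5 of the 7 genes in a RefSeq table of GRCm38.p6. These are Hmgcs1, Idi1, Lss and Insig1 with 1 window each and Dhcr7 with 3. Sqle and Fdft1 have no entry. A core of the sterol regulatory element, TCACNCCAC, was searched on both strands, and so was the NF-Y box CCAAT. The core was present only in the window of Hmgcs1, 137 bases before the start, and 1.24% of all 32851 windows hold it. CCAAT was present in 5 of the 7 windows of these genes, against 37.4% of all windows, and each of the 5 genes had at least 1 such window. The upstream stretches of Hmgcs1, Insig1 and Lss are printed because a match lies in them before any annotated transcript of the gene. All 3 are on the plus strand of GRCm38.p6. They cover chr13:119690101-119690350 for Hmgcs1, chr5:28071162-28071362 for Insig1 and chr10:76531355-76531587 for Lss. Capitals mark the element core and the NF-Y boxes, which read ATTGG on the printed strand.
Hmgcs1: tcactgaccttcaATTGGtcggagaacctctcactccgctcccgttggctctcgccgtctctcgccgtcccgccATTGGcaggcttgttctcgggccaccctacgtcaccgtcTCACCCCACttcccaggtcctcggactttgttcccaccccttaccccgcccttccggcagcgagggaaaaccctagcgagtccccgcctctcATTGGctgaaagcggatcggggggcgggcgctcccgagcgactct
Insig1: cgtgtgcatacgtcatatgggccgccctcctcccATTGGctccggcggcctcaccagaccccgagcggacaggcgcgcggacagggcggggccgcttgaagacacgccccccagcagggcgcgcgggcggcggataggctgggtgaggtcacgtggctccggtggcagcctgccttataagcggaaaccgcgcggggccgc
Lss: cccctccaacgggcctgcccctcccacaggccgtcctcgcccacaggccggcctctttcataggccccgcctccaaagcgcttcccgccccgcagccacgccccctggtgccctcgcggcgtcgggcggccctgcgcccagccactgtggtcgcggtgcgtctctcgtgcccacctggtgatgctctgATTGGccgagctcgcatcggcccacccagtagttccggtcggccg

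The stretch of Hmgcs1 holds 3 NF-Y boxes and the element core, and those of Insig1 and Lss hold 1 NF-Y box each and no core. A match is a run of letters and not a site shown to be bound.

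Hmgcs1, the cytosolic synthase that makes HMG-CoA, was the most abundant of the 7 genes in every library. It had 109.42 and 149.49 FPKM in Fmr-i1 Exp.1 and Exp.2, against 137.62 and 101.57 FPKM in Ctrl-i Exp.1 and Exp.2. The groups overlapped, and the highest and the lowest value were the 2 libraries of Exp.2. The row is transcript Hmgcs1-201, a protein-coding transcript of 10 exons on the plus strand of chromosome 13, 119690446 to 119708082 of GRCm38. The ratio of Fmr-i1 to Ctrl-i was 0.795 in Exp.1 and 1.47 in Exp.2. In the limma fit over all rows, with experiment as a block, the log2 fold change of FPKM + 1 was 0.11 (SE 0.34, adjusted p = 0.979).

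Idi1, which converts isopentenyl diphosphate to its isomer, spread furthest over the libraries. It had 9.15 and 13.36 FPKM in Fmr-i1 Exp.1 and Exp.2, against 17.68 and 3.58 FPKM in Ctrl-i Exp.1 and Exp.2. Both Fmr-i1 values lay between the Ctrl-i values, which differed 4.94-fold from each other. Its row, Idi1-201, is a protein-coding transcript of 5 exons on the plus strand of chromosome 13, 8885501 to 8892451. The ratio of Fmr-i1 to Ctrl-i was 0.518 in Exp.1 and 3.73 in Exp.2. The log2 fold change in limma was 0.38 (SE 0.70, adjusted p = 0.968), and without the Ctrl-i library of Exp.2 it was -0.63 (adjusted p = 0.926).

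Fdft1, the squalene synthase, was the only 1 of the 7 that was lower in Fmr-i1 than in Ctrl-i in both experiments, a direction seen in 15.2% of 9804 symbols with a mean of at least 1 FPKM. It had 21.3 and 14.68 FPKM in Fmr-i1 Exp.1 and Exp.2, against 28.01 and 24.6 FPKM in Ctrl-i Exp.1 and Exp.2. The groups did not overlap, with both Fmr-i1 libraries below both Ctrl-i libraries, as in 9.99% of symbols. Both shares depend on the scaling. After median scaling Fdft1 kept both forms, but 25.8% of symbols were then lower in both experiments. Both Fmr-i1 libraries were then below both Ctrl-i libraries in 18.3% of symbols. Fmr-i1 averaged 18.0 ± 4.68 FPKM and Ctrl-i 26.3 ± 2.41 FPKM (SD, n = 2 each). The row is Fdft1-201, a protein-coding transcript of 8 exons on the minus strand of chromosome 14, 63145153 to 63177793. The log2 fold change in limma was -0.54 (SE 0.37, 95% interval -1.47 to 0.38, adjusted p = 0.950), and the difference did not pass the test.

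Sqle, the monooxygenase that oxidises squalene, had the opposite order. It had 57.71 and 59.66 FPKM in Fmr-i1 Exp.1 and Exp.2, against 45.94 and 39.33 FPKM in Ctrl-i Exp.1 and Exp.2. Both Fmr-i1 libraries were above both Ctrl-i libraries, as in 27.2% of symbols, and the Fmr-i1 values were close to each other. After median scaling Sqle still had both Fmr-i1 libraries above both Ctrl-i libraries, as 17.1% of symbols then did. Fmr-i1 averaged 58.7 ± 1.38 FPKM and Ctrl-i 42.6 ± 4.67 FPKM (SD, n = 2 each). The row is Sqle-201, a protein-coding transcript of 11 exons on the plus strand of chromosome 15, 59315081 to 59331192. The log2 fold change in limma was 0.46 (SE 0.32, 95% interval -0.34 to 1.25, adjusted p = 0.950), and the difference did not pass the test. Sqle and Fdft1, which act in adjoining steps of the pathway, thus lay on opposite sides of Ctrl-i, and neither difference passed the test.

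**Figure D1:**
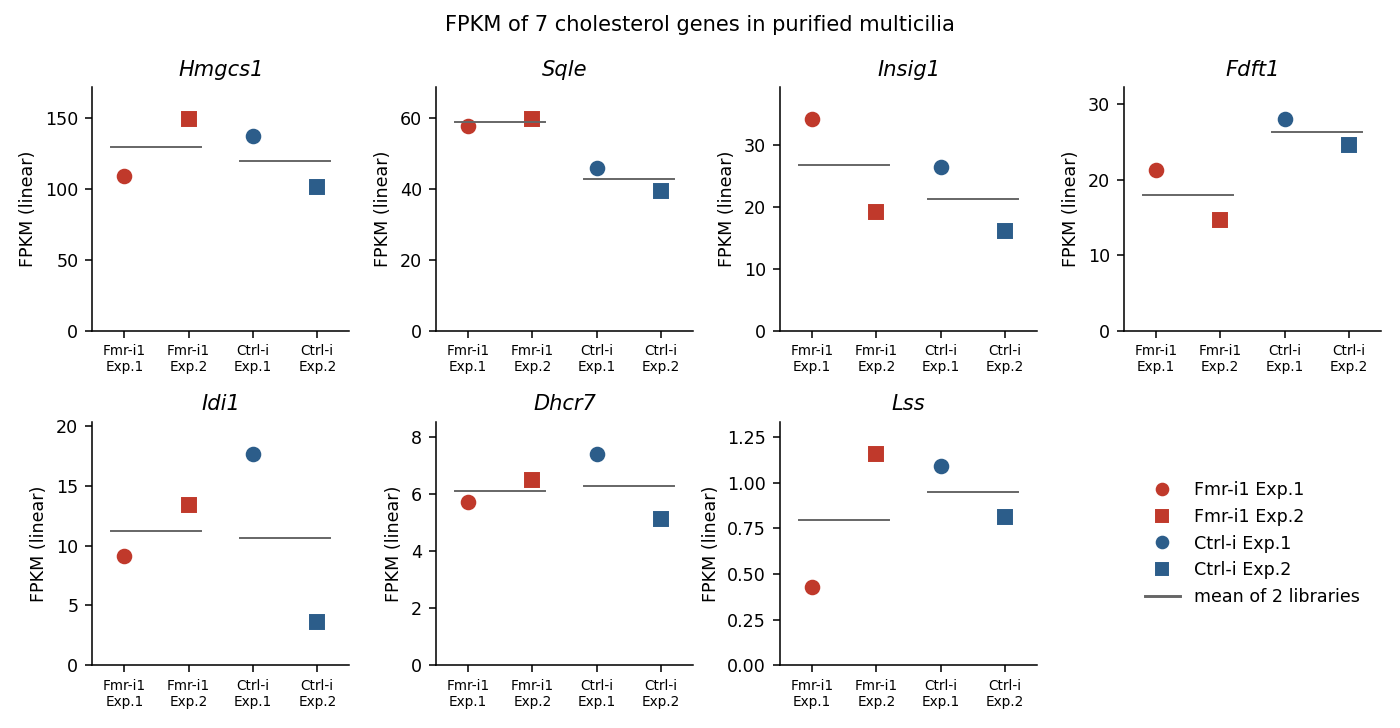
FPKM (linear axes from 0) of each of the 7 genes in the 4 libraries, with Fmr-i1 in red and Ctrl-i in blue, circles for Exp.1, squares for Exp.2 and a line at the mean of the 2 libraries of a group. The Fmr-i1 points of Sqle lie above and those of Fdft1 below both Ctrl-i points, and the groups overlap for the other 5 genes.

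Lss, the lanosterol synthase, was close to the lower end of the table. It had 0.43 and 1.16 FPKM in Fmr-i1 Exp.1 and Exp.2, against 1.09 and 0.81 FPKM in Ctrl-i Exp.1 and Exp.2, and the groups overlapped. Its mean of 0.873 FPKM was under the minimum of 1 FPKM for the fit, and without this minimum the log2 fold change was -0.15 (adjusted p = 0.960). The row is Lss-204, which GENCODE M21 annotates as a retained intron and not as a protein-coding transcript, at 76531612 to 76557138 on the plus strand of chromosome 10. The values therefore describe this transcript, and the protein-coding Lss transcripts were not analysed here.

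Dhcr7, the reductase of the last step to cholesterol, was the steadiest of the 7 genes, with a highest value 1.45-fold above the lowest. It had 5.73 and 6.49 FPKM in Fmr-i1 Exp.1 and Exp.2, against 7.42 and 5.12 FPKM in Ctrl-i Exp.1 and Exp.2. Both Fmr-i1 values lay between the Ctrl-i values. The row is Dhcr7-202, 1 of 13 annotated transcripts of the gene, a protein-coding transcript of 9 exons on the plus strand of chromosome 7, 143829626 to 143848410. The log2 fold change in limma was -0.016 (SE 0.49, adjusted p = 0.998).

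Insig1, the sterol-dependent brake on SREBP processing, was the only 1 of the 7 genes that is not an enzyme. It had 34.15 and 19.18 FPKM in Fmr-i1 Exp.1 and Exp.2, against 26.46 and 16.09 FPKM in Ctrl-i Exp.1 and Exp.2. Fmr-i1 was the higher library within each experiment, at 1.29 and 1.19 times Ctrl-i, but the groups overlapped because both libraries of Exp.1 were above both of Exp.2. Insig1 and Sqle were the 2 of 7 genes that were higher in both experiments, against 35.6% of symbols. The row is Insig1-201, a protein-coding transcript of 5 exons on the plus strand of chromosome 5, 28071363 to 28078662. The log2 fold change in limma was 0.30 (SE 0.36, adjusted p = 0.955). After the libraries were scaled to 1 median, or quantile normalised, Insig1 was no longer higher in both experiments.

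None of the 6 genes in the fit passed an adjusted p of 0.05, and neither did any of the 11898 rows tested (0.0%). At an unadjusted p below 0.05 the fit gave 598 rows, 5.03% of those tested, and none of the 6 genes was among them. Without experiment as a block, limma called 3 rows, 0.0252% of those tested, none of them among the 6 genes. The 95% intervals of all 6 genes spanned 0, and that of Idi1 was the widest, from -1.39 to 2.16. With 2 libraries against 2, an exact permutation test of a single gene cannot give a p below 0.333. A p above the threshold does not show that the groups were alike, and for Hmgcs1 the interval reached from -0.75 to 0.98. The log2 fold change was above 0 for 63.3% of all rows, with a median of 0.16, and median scaling moved this median to -0.013.

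**Figure D2:**
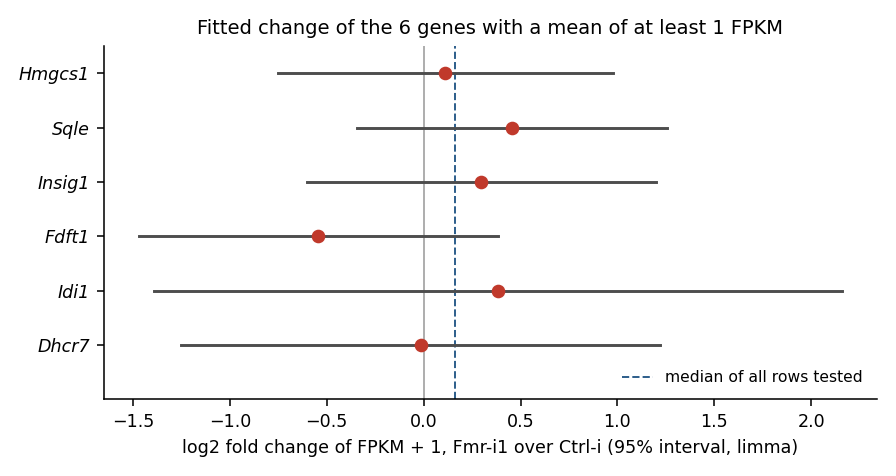
Log2 fold change of FPKM + 1, Fmr-i1 over Ctrl-i, of the 6 genes with a mean of at least 1 FPKM, with the 95% interval of the limma fit and a dashed line at the median of all 11898 rows tested, 0.16. All 6 intervals cross 0.

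The most frequent form among the 7 genes was a disagreement between the experiments. Hmgcs1, Idi1, Lss and Dhcr7 were lower in Fmr-i1 than in Ctrl-i in Exp.1 and higher in Exp.2, which makes 4 of 7 genes against 29.6% of symbols. No gene of the 7 had the opposite form, which 19.2% of symbols had. The 4 genes kept this form after median scaling, after quantile normalisation and after the mitochondrially encoded RNAs were left out. Lss is counted here although its mean was under the minimum of 1 FPKM that the symbols had to reach. This count and those between libraries of 1 group were made after the values were seen.

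The difference between the 2 Ctrl-i libraries ran the same way in the whole set. All 7 genes were higher in Ctrl-i Exp.1 than in Ctrl-i Exp.2, against 58.1% of symbols, with ratios between 1.14 for Fdft1 and 4.94 for Idi1. In Fmr-i1, 5 of 7 genes were higher in Exp.2 than in Exp.1, against 54.1% of symbols, and Insig1 and Fdft1 were the exceptions. The same 5 genes showed both differences, which 33.8% of symbols did. With the mitochondrially encoded RNAs left out, 6 of 7 genes were higher in Ctrl-i Exp.1, against 44.5% of symbols, and Fdft1 was then the exception. Summed over the 7 genes, FPKM was 237.89 and 264.02 in Fmr-i1 Exp.1 and Exp.2, against 264.22 and 191.1 in Ctrl-i Exp.1 and Exp.2. Ctrl-i Exp.2 stood lowest, and the other 3 sums lay close together. Hmgcs1 made up between 46.0% and 56.6% of the sum in every library.

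Cell type markers also differed between the 2 Ctrl-i libraries. Multiciliated cell markers summed to 1909 and 1709 FPKM in Fmr-i1 and to 1466 and 2006 FPKM in Ctrl-i Exp.1 and Exp.2, and 0 of the 12 were higher in Ctrl-i Exp.1 than in Ctrl-i Exp.2. Astrocyte markers summed to 2393 and 2369 FPKM in Fmr-i1 and to 3447 and 2755 FPKM in Ctrl-i, and 6 of the 8 were higher in Ctrl-i Exp.1. Of all symbols, 58.1% were higher in Ctrl-i Exp.1 as deposited, and 44.5% with the mitochondrially encoded RNAs left out. The marker counts are as deposited. Ctrl-i Exp.2 was also the library with the largest share of mitochondrially encoded RNA. The part of any of these in the values of the 7 genes was not tested.

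**Figure D3:**
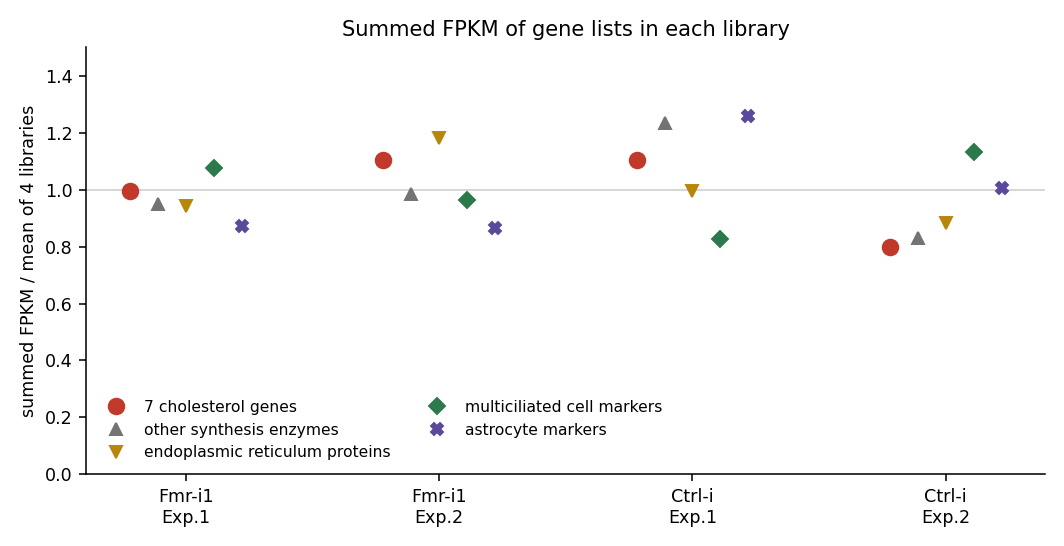
Summed FPKM of 5 gene lists in each library, divided by the mean of the list over the 4 libraries (linear axis from 0). The 7 cholesterol genes, the other synthesis enzymes and the endoplasmic reticulum proteins all stand lowest in Ctrl-i Exp.2, where the multiciliated cell markers stand highest.

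Between genes, the order of the levels was stable at the top. Hmgcs1 came first and Sqle came next in all 4 libraries, and their values did not overlap. Insig1 and Fdft1 came after them, Insig1 above Fdft1 in both Fmr-i1 libraries and Fdft1 above Insig1 in both Ctrl-i libraries, and their ranges overlapped. Idi1 and Dhcr7 followed with overlapping ranges, Dhcr7 being above Idi1 only in Ctrl-i Exp.2, and Lss was last in every library. The mean FPKM of Sqle was above that of 86.1% of symbols, that of Idi1 above 52.5% and that of Lss above 3.13%. The transcript length given beside a row equals the genomic span, introns included, in 90.3% of rows, and whether FPKM was divided by this length is not settled, so the order between genes rests on the deposited scaling.

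The other enzymes of the pathway give the context of the 7 genes. Of 20 synthesis enzymes listed, 18 had a row and 17 had a mean of at least 1 FPKM, and Mvk and Tm7sf2 were not found. Fitted on the sums over each symbol, the log2 fold change was positive for 11 of these 17 and negative for 6, with a median of 0.28, beside 65.1% positive and a median of 0.16 over all 9804 symbols. None passed an adjusted p of 0.05, which 0.0% of symbols did. The 7 tested enzymes of the mevalonate pathway had a positive fitted change (median 0.44), but they did not share 1 form. Of the 7, 3 (42.9%) were higher in both experiments, against 35.6% of symbols. The other 4 (57.1%) were below Ctrl-i in Exp.1 and above it in Exp.2, against 29.6% of symbols. After median scaling 5 were positive and Hmgcs1 and Fdps were negative, beside 4828 positive of 9804 symbols, and without Ctrl-i Exp.2 the change of Idi1 was -0.63. Of the 10 tested sterol enzymes, Fdft1 and Sqle included, 4 were positive and 6 negative (median -0.084), also after median scaling. The difference between these lists was not tested.

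Fdps, which makes farnesyl diphosphate, had the same form as Idi1, with 11.39 and 18.0 FPKM in Fmr-i1, against 22.54 and 7.97 FPKM in Ctrl-i. Cyp51, the demethylase that acts on lanosterol, had 8.47 and 18.66 FPKM in Fmr-i1, against 17.02 and 5.57 FPKM in Ctrl-i. In both genes the groups overlapped, Ctrl-i Exp.2 was the lowest library, and Fmr-i1 was lower in Exp.1 and higher in Exp.2.

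Pmvk, the phosphomevalonate kinase, differed from these, with 21.04 and 18.9 FPKM in Fmr-i1, against 10.95 and 10.24 FPKM in Ctrl-i, and the groups did not overlap. Its log2 fold change on the fit of the sums was 0.85 (SE 0.39, adjusted p = 0.915). Msmo1, the methylsterol oxidase, had 68.1 and 41.4 FPKM in Fmr-i1, against 95.41 and 70.44 FPKM in Ctrl-i, with both Fmr-i1 libraries below both Ctrl-i libraries, as for Fdft1. Its log2 fold change was -0.62 (SE 0.31, adjusted p = 0.915). Of the 12 tested enzymes other than the 7 genes, 9 (75.0%) were higher in Ctrl-i Exp.1 than in Ctrl-i Exp.2, against 58.1% of symbols. The form of Hmgcs1, below Ctrl-i in Exp.1 and above it in Exp.2, was found in 4 (33.3%), close to the 29.6% of symbols.

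**Figure D4:**
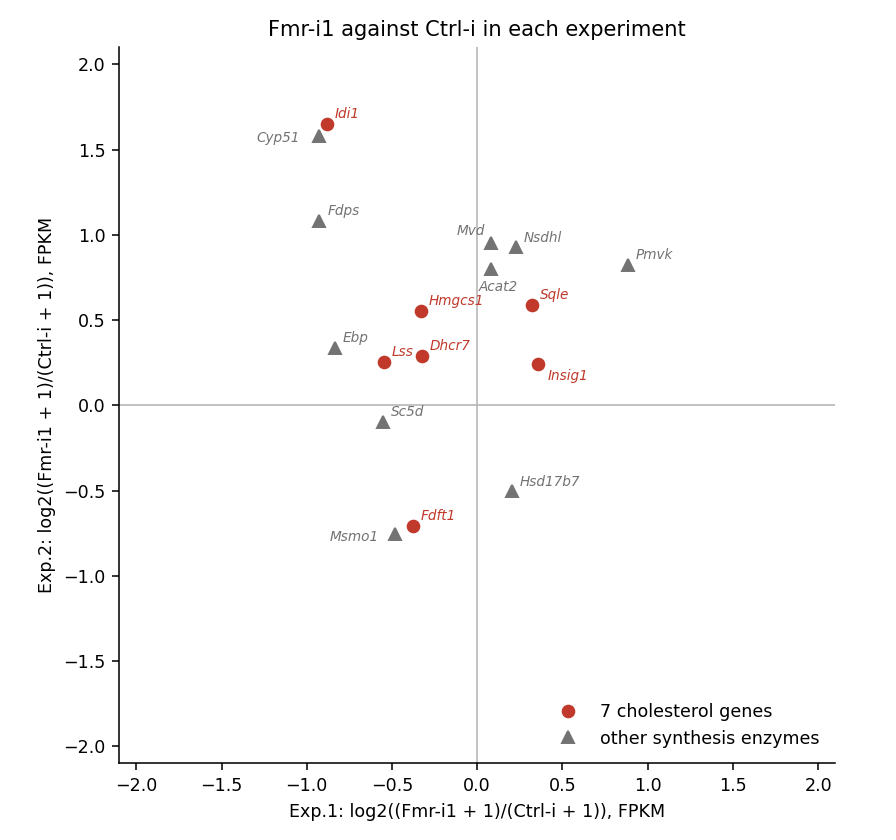
Log2 ratio of FPKM + 1, Fmr-i1 over Ctrl-i, in Exp.1 (horizontal axis) and Exp.2 (vertical axis), with the 7 cholesterol genes as red circles and 10 of the 12 other synthesis enzymes as grey triangles. Hmgcs1, Idi1, Lss and Dhcr7 lie in the upper left, lower in Exp.1 and higher in Exp.2, beside Fdps, Cyp51 and Ebp, and Fdft1 lies beside Msmo1 in the lower left.

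Among the 7 genes of sterol sensing and SREBP processing, Insig1 included, 4 (57.1%) were higher in both experiments, against 35.6% of symbols. None, 0 of 7, was lower in both, against 15.2%. After median scaling 2 were higher and 1 was lower in both, against 24.1% and 25.8% of symbols. Insig2, the paralogue of Insig1, had 26.89 and 57.57 FPKM in Fmr-i1, against 82.08 and 40.07 FPKM in Ctrl-i, summed over 2 rows. This sum was lower in Exp.1 and higher in Exp.2, but its 2 rows differed. Transcript Insig2-201 had 26.79 and 28.79 FPKM in Fmr-i1, against 25.21 and 15.0 FPKM in Ctrl-i. As deposited it was thus higher in both experiments, like Insig1, but in Exp.1 its values of 26.79 and 25.21 FPKM were close. Insig1 lost this form after median scaling. Transcript Insig2-207 had 0.1 and 28.78 FPKM in Fmr-i1, against 56.87 and 25.07 FPKM in Ctrl-i, and gave the sum its form. Srebf2, which encodes the SREBP that mainly drives cholesterol genes, was steady, with 24.75 and 23.75 FPKM in Fmr-i1, against 22.35 and 24.51 FPKM in Ctrl-i. Scap had 13.12 and 21.58 FPKM in Fmr-i1, against 10.75 and 10.27 FPKM in Ctrl-i, and its groups did not overlap. Over this list the log2 fold change was positive for 5 genes and negative for 2 (median 0.051), beside 65.1% positive over all symbols, and for 3 and 4 genes after median scaling, and none passed the test.

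None of the 7 genes takes up cholesterol, and uptake was read from a list of 13 genes, of which 11 had a row and 10 were tested. In 3 of these the groups did not overlap. Npc1, which moves cholesterol out of lysosomes, had 14.83 and 23.4 FPKM in Fmr-i1, against 9.61 and 13.78 FPKM in Ctrl-i, with Fmr-i1 above (log2 fold change 0.65, SE 0.39, limma adjusted p = 0.915). Lipa, the lysosomal lipase that frees cholesterol from its esters, had 3.88 and 4.75 FPKM in Fmr-i1, against 4.88 and 8.3 FPKM in Ctrl-i, with Fmr-i1 below. Lrp8, a lipoprotein receptor, had 9.85 and 7.63 FPKM in Fmr-i1, against 12.04 and 11.51 FPKM in Ctrl-i, summed over 2 rows and likewise with Fmr-i1 below. These make 1 of 10 genes above and 2 of 10 below, against 27.2% and 9.99% of symbols. After median scaling these shares of symbols were 17.1% and 18.3%. Among the tested genes the log2 fold change was positive for 7 and negative for 3 (median 0.16), or 5 and 5 after median scaling, and none passed the test. The last list holds proteins that reside in the endoplasmic reticulum, where most of the synthesis enzymes work. It had 13 positive and 5 negative of 18 tested (median 0.18), beside 65.1% positive over all symbols, with none past the test. After median scaling 9 were positive and 9 negative (median -0.015). In 11 of the 18 (61.1%) Ctrl-i Exp.1 was above Ctrl-i Exp.2, close to the 58.1% of symbols.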

How the data were processed

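RNA of purified multicilia was sequenced by the authors after poly(A) capture with a strand-keeping kit, and FPKM per transcript row was deposited. Cutadapt 1.9.1, Hist 2.0.1 and Cuffdiff 2.2.1 are given in the paper, but featureCounts 1.5.3 and HISAT2 2.1.0 in the submitters' processing notes, and it is not settled which tools gave the FPKM. Rows were matched to GENCODE M21. Groups came from the sample titles, and the title numbers Exp.1 and Exp.2 mark independent experiments, which were used as a block. Deviations from the group means correlated at -0.082 within experiments. limma 3.58.1 (R 4.3.3) was run on log2(FPKM + 1) for rows whose mean reached 1 FPKM, with a variance trend and Benjamini-Hochberg adjustment. The pseudocount of 1 understates changes of low rows. Some genes of the lists are counted but not reported here by name. The fit was tested on simulated data, where it called 0 of 50 rows with a log2 change of 1. It called 2 of 50 with a change of 2, 39 of 50 with 4, and 2 of 11698 unchanged rows. Changes as small as those fitted for the 7 genes could therefore go uncalled. Symbol sums, pseudocounts, filters, scalings and libraries were varied. The genes named are the 7 cholesterol genes, Fmr1, any gene of the lists of synthesis, sensing and uptake, the 2 largest changes each way in other lists, and the 5 genes of nearest profile. Members and lists were chosen with earlier results of these data known. Nothing says that the libraries of a group came from separate animals, and p-values measure the spread between these libraries.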

Additional observations from a re-analysis of the deposited data

How the results depend on the processing

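No row passed an adjusted p of 0.05 in limma, at every setting tried but 1. That setting was the fit without experiment as a replicate block, which called 3 rows, none of them among the 7 genes. Fits that leave out 1 library also have no block, because 1 experiment then lacks its pair, and they assume that the lone library of a group varies like the other group. Log2 fold changes of Sqle stayed positive and those of Fdft1 negative under all 14 alternatives, and the lowest adjusted p of any of the 7 genes under any setting was 0.656. Median scaling turned the log2 fold change of Hmgcs1 to -0.082, against 0.11 unscaled. Leaving out 1 library at a time gave the log2 fold change a range of -0.11 to 0.34 for Hmgcs1, -0.10 to 0.70 for Insig1, -0.63 to 1.40 for Idi1 and -0.25 to 0.21 for Dhcr7, so that each of these 4 changed sign. Lss reached the minimum of 1 FPKM only without Fmr-i1 Exp.1, where its log2 fold change was 0.15. Insig1 was higher in both experiments as deposited but not after median scaling or quantile normalisation, where 1 of 7 genes was. The log2 ratio of the summed FPKM of the 7 genes, Fmr-i1 over Ctrl-i, was 0.14 and ranged from -0.074 to 0.39 without 1 library at a time, the highest being without Ctrl-i Exp.1. It was -0.049 after median scaling. The causes of these moves were not tested. The missing depth and 2 libraries a group limit every statement. Alternatives on the counts of lower genes, on the form of opposite experiments, on the Ctrl-i libraries, on the scaling of the gene lists and on the sum without 1 library were chosen after seeing the data.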

Other observations

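Lipid genes next to the sterol pathway were also read. Of 10 genes of fatty acid synthesis and desaturation, the log2 fold change was positive for 4 and negative for 6 (median -0.085), and none passed the test. Scd2, a stearoyl-CoA desaturase, had 284.05 and 286.76 FPKM in Fmr-i1, against 482.83 and 404.55 FPKM in Ctrl-i, and the groups did not overlap (log2 fold change -0.63, SE 0.29, limma adjusted p = 0.915). Of 8 tested genes on the branches that use isoprenoids for prenylation, dolichol and coenzyme Q, 1 was on the positive and 7 were on the negative side (median -0.32), and none passed the test. Rabggtb, a subunit of the enzyme that prenylates Rab proteins, had 13.4 and 0.01 FPKM in Fmr-i1, against 15.36 and 10.55 FPKM in Ctrl-i, so that its value rests on 1 library. Of 6 tested genes of efflux and LXR signalling, 4 were on the positive and 2 on the negative side (median 0.11). Over all 9804 symbols, 65.1% were positive. After median scaling, positive and negative genes were 4 and 6 for fatty acids, 0 and 8 for isoprenoids and 1 and 5 for efflux. Of all 9804 symbols, 4828 were then positive.

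Over the 4 libraries, the genes with the profile nearest to the mean profile of the 7 cholesterol genes were Myl6, Trappc2, Zfc3h1, Rbbp6 and Atp5f1, of 7124 symbols with a mean of at least 5 FPKM. Myl6, a myosin light chain, had 299.44 and 312.45 FPKM in Fmr-i1, against 347.19 and 236.4 FPKM in Ctrl-i, at a distance of 0.038 log2 units. The 7 genes themselves lay 0.15 (Dhcr7) to 1.10 (Idi1) log2 units from this mean profile, so the mean describes few of them, and the likeness is a description over 4 libraries.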
